A study of Oryza sativa with 9 samples.

Results

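Root RNA of rice plants labelled OE2 was compared with that of the wild type (WT), gene model by gene model. The labels give the genotype of OE2 as dgk1 OE, an overexpression line of a diacylglycerol kinase, and that of WT as wild-type. All plants were of the japonica cultivar Dongjin, 7 days old and grown in soil at room temperature, with 10 h of light a day and 14 h of dark. Each line had 3 libraries, which the design text calls biological repetitions. OE2 is a single line, so a difference from WT belongs to the libraries so labelled. The sources used here do not give the promoter of its transgene, its site of insertion or the number of plants per library. Another line, labelled dgk1 KO, entered the fit only to estimate the spread between libraries and is described only at the targeted gene. Gene models with at least 1 FPKM (fragments per kilobase of model, scaled to depth) in at least 3 of the 6 libraries were tested. These were 21054 of the 105692 models listed, 16931 on 9 chromosomes and 4106 on chromosomes 6, 11 and 12, which are reported apart because called models were denser there in earlier results of these data. The remaining 17 lie on unplaced sequences and none of them was called.

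Diacylglycerol kinases add a phosphate to the membrane lipid diacylglycerol and so make phosphatidic acid. Phospholipases C supply the diacylglycerol, phospholipases D make phosphatidic acid directly, and lipid phosphate phosphatases turn it back. In plants phosphatidic acid is known as a signal that binds kinases, phosphatases and NADPH oxidases, in responses to drought, salt, cold, pathogens and in the growth of root hairs and roots. The study asks how the kinase and its lipids bear on the architecture of rice roots.

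The targeted gene was looked at first. OS04G0634700 (chromosome 4, 32286661 to 32291433, plus strand, as the files list it; the sources used here do not give the genome build) carries the description diacylglycerol kinase and had a value of 0 in each of the 6 libraries. Its locus holds fragments under another entry, model 25546, which has the same span and diacylglycerol kinase catalytic and accessory domains. Model 25546 lay at 0.896, 0.738 and 0.487 FPKM in WT and 0.521, 0.625 and 0.571 FPKM in OE2. The values of the libraries labelled OE2 lie within the range of those of WT, and none exceeds the highest WT library. Summed over 3 libraries these are 66 and 48 fragments, a ratio of 0.848 scaled for depth, with an exact 95% interval for counting error of 0.572 to 1.25. Model 25546 missed the 1 FPKM filter, and in the fit with no filter its log2 fold change was -0.11 (limma adjusted p = 0.790). In the libraries labelled dgk1 KO it lay at 7.24, 5.596 and 9.16 FPKM, a mean of 7.33 beside 0.707 in WT, and every one of them was above every WT and OE2 library. The values at this locus thus go against the label of OE2 and also against that of dgk1 KO, and whether the labels of these lines were exchanged was not tested. In what follows OE2 means the libraries labelled OE2, and every direction given is that of the libraries so labelled.

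The libraries held 8908397 to 12459460 fragments in WT and 9786426 to 9846049 in OE2. A principal component analysis of the 6 libraries put WT between -55.6 and -42.8 and OE2 between 48.2 and 52.0 on its first axis (51.3% of the variance). The second axis (17.4%) set WT replicate 1 (41.6) and OE2 replicate 2 (39.7) apart from the other 4 libraries (-28.2 to -16.0). They are called the outlying libraries below, and what leaving out both does to the gene lists is summed up after them. Root markers (Casparian strip membrane proteins, silicon channels and root-specific proteins) summed to 915 to 1278 FPKM in WT and 1071 to 1300 in OE2, with 5 of 16 at 0 in every library. Green tissue markers (chlorophyll-binding proteins, photosystem subunits and Rubisco small chain) summed to 230 to 348 FPKM in WT and 237 to 339 in OE2, with 9 of 40 at 0. The 26 seed markers summed to 7.19 to 10.2 FPKM in WT and 7.52 to 11.1 in OE2, with 17 at 0. The 6 pollen markers summed to 1.64 to 3.42 in WT and 1.06 to 1.51 in OE2.

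In all, limma called 1541 of 21054 models at a Benjamini-Hochberg adjusted p of 0.05 (7.32%), 835 higher in OE2 (3.97%) and 706 lower (3.35%). An unadjusted p under 0.05 was reached by 4459. The share differed by chromosome. It was 13.7% on chromosome 6, 19.2% on chromosome 11 and 14.7% on chromosome 12, and between 3.62% (chromosome 3) and 6.78% (chromosome 7) on each of the other 9. On chromosomes 6, 11 and 12 together, 641 of 4106 models were called (15.6%), 345 higher (8.40%) and 296 lower (7.21%). On chromosome 6 the lower calls were the more numerous, 154 against 81, and on chromosomes 11 and 12 the higher ones, 143 against 92 and 121 against 50. On the other 9 chromosomes limma called 900 of 16931 models (5.32%), 490 higher in OE2 (2.89%) and 410 lower (2.42%). There 3228 models had an unadjusted p under 0.05. Values of the 3 WT and 3 OE2 libraries did not overlap for 23.1% of models on the 9 chromosomes and for 32.4% on chromosomes 6, 11 and 12.

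**Figure D1:**
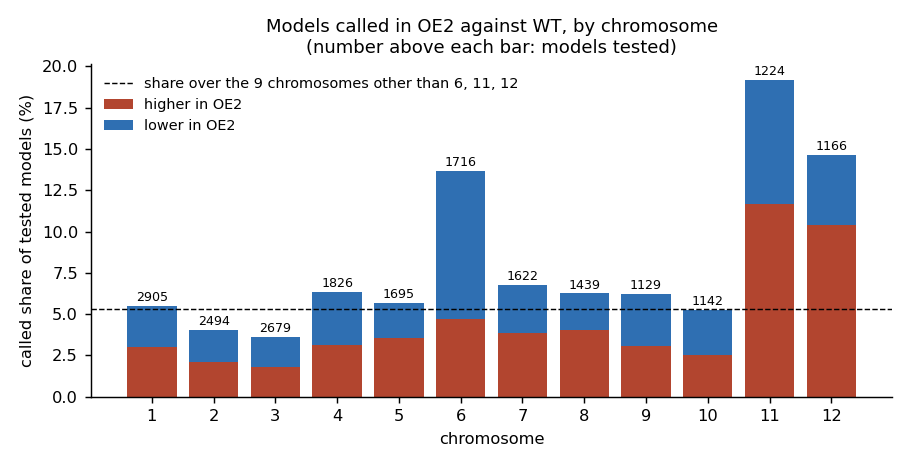
Share of tested gene models called by limma in OE2 against WT on each chromosome (y axis, percent), split into models higher (red) and lower (blue) in OE2, with the number tested above each bar. The dashed line is the 5.32% of the 9 chromosomes together. Chromosomes 6, 11 and 12 reach 13.7%, 19.2% and 14.7%, and the lower calls outnumber the higher ones most on chromosome 6.

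Calls also lay in runs within the 9 chromosomes. Of 286 windows of 1 Mb with at least 10 tested models, 11 had over 20% called, and these 11 held 103 of the 900 calls among 362 tested models. They were chosen by their share, so this is a description. The first 3 Mb of chromosome 4 made up 3 of them, with 13 of 57, 14 of 33 and 4 of 13 models called. The fullest on chromosome 5 was the window of 17 to 18 Mb, where 19 of 58 were called and 17 of them higher. On chromosome 7 the window of 9 to 10 Mb had 7 of 18 called, and on chromosome 8 that of 9 to 10 Mb had 10 of 27. Outside the 11 windows 797 of 16569 models were called (4.81%). A called model's next neighbour that did not overlap it was also called in 136 of 830 cases (16.4%, beside 5.32% of all models on the 9 chromosomes), 105 of them in the same direction. Among annotated models it was 56 of 491 (11.4%, beside 4.62%). On chromosomes 6, 11 and 12 the share was 40.2%. Whether runs of calls reflect differences in sequence between the lines or differences in expression was not tested. Genes named below that lie in 1 of the 11 windows are said to do so.

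Among the 900 calls on the 9 chromosomes, 552 differed by at least 2-fold on the log2(FPKM + 1) scale. The median size was 1.36 for the higher calls and 1.10 for the lower ones, on the log2 scale. Of the called models, 112 were listed at 0 in every WT library and 86 in every OE2 library. These passed the filter through the other line alone and so had to differ. On the opposite side stand models that both lines used: of 13284 models at 1 FPKM or more in all 6 libraries, 455 were called (3.43%), 238 higher (1.79%) and 217 lower (1.63%). Annotated models were called in 501 of 10842 cases (4.62%), numbered models in 319 of 4344 (7.34%) and noncoding models in 80 of 1745 (4.59%). A description that names a function was available for 5494 tested models, of which 213 were called (3.88%), 133 higher (2.42%) and 80 lower (1.46%). Functions are described for these. A list's share of calls is given beside the 5.32% of all models on the 9 chromosomes (2.89% higher and 2.42% lower). Lists were matched on descriptions. The lower 3.88% of models with a described function (2.42% higher and 1.46% lower) is thus the nearer background for each list. The filter itself falls among low models: beta-galactosidase 1 (OS01G0533400) lay just inside it, at 1.68, 0.793 and 1.001 FPKM in WT and 1.001, 0.7565 and 0.477 in OE2, and an AAA-type ATPase (OS02G0706500) just outside, at 0.650, 0.905 and 1.016 in WT and 1.124, 0.998 and 0.893 in OE2.

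**Figure D2:**
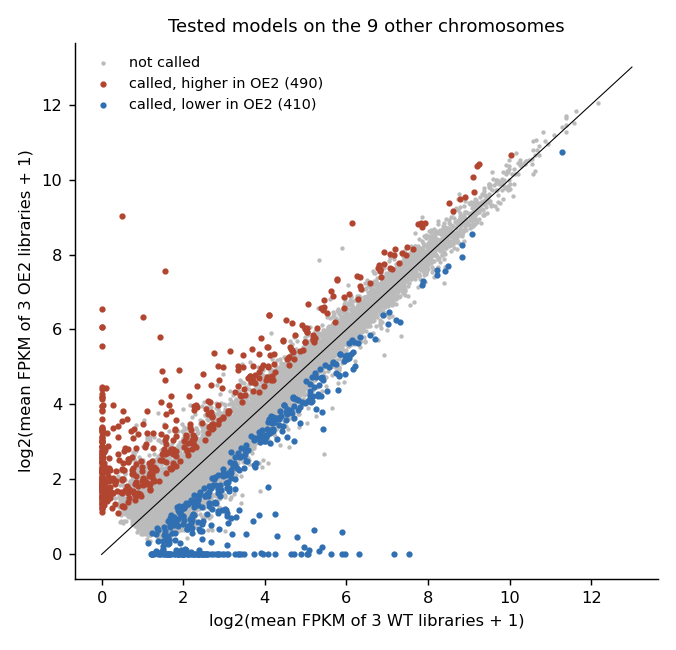
Mean level of each tested model on the 9 chromosomes in WT (x axis) and OE2 (y axis), both as log2(mean FPKM of 3 libraries + 1), with models called higher in OE2 in red (490), called lower in blue (410) and the others in grey. The column of red points at 0 on the x axis and the row of blue points at 0 on the y axis are models listed at 0 in 1 line (112 and 86 of the calls).

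Non-symbiotic hemoglobins and enzymes of glycolysis were among the rises. Non-symbiotic hemoglobins bind oxygen very tightly and remove nitric oxide in roots short of oxygen. Hemoglobin 2 (OS03G0226200, chromosome 3, 6624980 to 6626080, minus strand) lay at 106, 64.9 and 38.8 FPKM in WT and 353.5, 656 and 364 FPKM in OE2. Every OE2 library was above every WT library, and within each line the highest value was in the library set apart on the second component (log2 fold change 2.75 ± 0.40 (SE), limma adjusted p = 0.00318). Hemoglobin 1 (OS03G0233900, chromosome 3, 7092864 to 7093988, plus strand) lay at 79.1, 41.4 and 39.9 FPKM in WT and 120.5, 226 and 131 FPKM in OE2, with the same 2 libraries highest (log2 fold change 1.57 ± 0.32 (SE), limma adjusted p = 0.0192). The call of hemoglobin 2 was kept in all 20 alternatives and that of hemoglobin 1 was lost in 4, among them those without WT replicates 2 and 3 and OE2 replicate 2 (limma adjusted p up to 0.0734). These were the 2 called members among 4 tested genes of the hypoxia and fermentation list on the 9 chromosomes (50%, beside 5.32%), and all 4 lay above WT (median log2 fold change 1.08, and 1.04 without both libraries). In bulk roots, more RNA per cell and more cells of a kind that uses a gene cannot be told apart, here and below.

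Of 29 tested genes of glycolysis and carbon metabolism 3 rose and none fell, a share of 10.3% beside 5.32%, and the list's median was 0.03, which turned to -0.03 with equal sums per library. Fructose-bisphosphate aldolase 3 (OS01G0905800), which splits the sugar bisphosphate of glycolysis, was among the most abundant called genes. It lay at 707, 551 and 552 FPKM in WT and 1219, 1733 and 1129 FPKM in OE2. The groups did not overlap, and the call was kept in all 20 alternatives (log2 fold change 1.16 ± 0.18 (SE), limma adjusted p = 0.00434). Cytosolic glyceraldehyde-3-phosphate dehydrogenase 3 (OS02G0601300), of the next step, lay at 275, 200.3 and 205 FPKM in WT and 402, 599 and 359.8 FPKM in OE2, again highest in WT replicate 1 and OE2 replicate 2 (log2 fold change 0.98 ± 0.20 (SE), limma adjusted p = 0.0208). A 6-phosphofructokinase (OS05G0524400), of the step before aldolase, rose from 35.4 ± 4.71 to 57.3 ± 10.9 FPKM (0.67 ± 0.17, adjusted p = 0.0463 by limma). The call of the dehydrogenase was lost in 4 alternatives, among them those without WT replicates 2 and 3 (limma adjusted p up to 0.0785), and that of the phosphofructokinase in 13, 4 of them without a single WT or OE2 library (up to 0.256).

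The rule for the largest and most abundant calls also picked enzymes that handle sulfur compounds and methionine, from which ethylene is made. No list of this metabolism was counted. Acireductone dioxygenase 1 (OS10G0419400, chromosome 10, 14751991 to 14754323, minus strand), an enzyme of the methionine salvage cycle, lay at 45.9, 62.1 and 52.2 FPKM in WT and 151.5, 183.5 and 148 FPKM in OE2. Its OE2 values were 3.01 times those of WT in the mean, with no overlap (log2 fold change 1.58 ± 0.13 (SE), limma adjusted p = 7.72e-05). The cyanoalanine and cysteine synthase of mitochondria (OS04G0165700), which detoxifies the cyanide that ethylene synthesis releases, lay at 216.5, 237 and 240.2 FPKM in WT and 462, 381 and 436.5 FPKM in OE2 (log2 fold change 0.88 ± 0.0978 (SE), limma adjusted p = 0.000527). Model 22595, with an ATP-sulfurylase domain of the first step of sulfate assimilation, lay at 3.45, 2.33 and 1.64 FPKM in WT and 9.599, 9.05 and 8.27 FPKM in OE2 (log2 fold change 1.55 ± 0.26 (SE), limma adjusted p = 0.00652). It lies in the first 1 Mb of chromosome 4, 1 of the 11 windows. All 3 calls were kept in the 20 alternatives. Ethylene receptor 2 (OS04G0169100), of the membrane receptors that hold ethylene signalling off until they bind the hormone, lay at 68.4, 57.6 and 56.9 FPKM in WT and 93.4, 91.2 and 97.1 FPKM in OE2 and kept its call throughout (log2 fold change 0.62 ± 0.0963 (SE), limma adjusted p = 0.00416). It was the 1 call among 44 tested genes of the ethylene and AP2/ERF list, of which 32 lay above WT (median 0.17).

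**Figure D3:**
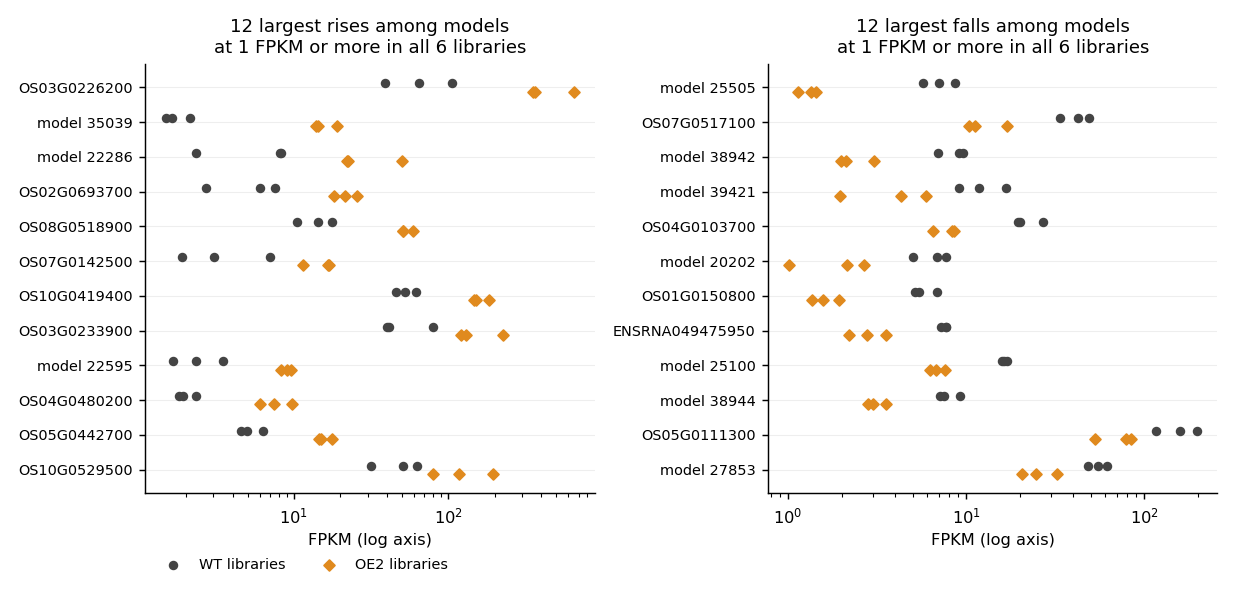
FPKM of every WT (grey circles) and OE2 (orange diamonds) library, on log axes, for the 12 largest rises (left) and 12 largest falls (right) among called models on the 9 chromosomes with 1 FPKM or more in all 6 libraries, at least 5 FPKM in the higher line, a described function and, as a condition of the choice, no overlap between the lines. Hemoglobin 2 (OS03G0226200), at 38.8 to 106 FPKM in WT and 353.5 to 656 in OE2, has the largest rise shown. ENSRNA049475950 is the small nucleolar RNA snoR135.

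Other rises among genes at 1 FPKM or more in every library were spread over functions. The largest after hemoglobin 2 was model 35039, with the domains of the transcription elongation factor TFIIS, at 1.61, 1.48 and 2.125 FPKM in WT and 19.01, 13.9 and 14.4 FPKM in OE2 (log2 fold change 2.61 ± 0.18 (SE), limma adjusted p = 2.27e-05). The ABC transporter OS02G0693700, of the multidrug resistance type to which several auxin carriers belong, lay at 6.002, 7.51 and 2.67 FPKM in WT and 18.3, 21.3 and 25.65 FPKM in OE2 (log2 fold change 1.904 ± 0.30 (SE), limma adjusted p = 0.00499). It was the 1 call among 32 tested ABC transporters, of which 24 lay above WT. The chitinase OS08G0518900, of enzymes that cut fungal walls, lay at 17.5, 10.45 and 14.3 FPKM in WT and 50.6, 59.1 and 51.03 FPKM in OE2 (log2 fold change 1.88 ± 0.21 (SE), limma adjusted p = 0.000554), the 1 call among 36 chitinases, germins and pathogenesis-related genes, of which 4 rose without both outlying libraries. All 3 calls were kept in the 20 alternatives. Model 22286, a peptidase of the M20 family to which hydrolases of auxin conjugates belong, lay at 8.25, 8.12 and 2.32 FPKM in WT and 22.5, 50.5 and 22.2 FPKM in OE2, highest in OE2 replicate 2 (log2 fold change 2.22 ± 0.50 (SE), limma adjusted p = 0.0335). An early nodulin 75-like gene (OS07G0142500), of a family of proline-rich wall proteins, lay at 6.97, 1.875 and 3.02 FPKM in WT and 16.9, 11.4 and 16.5 FPKM in OE2 (log2 fold change 1.8 ± 0.34 (SE), limma adjusted p = 0.01402). These last 2 calls were lost in 9 and 3 alternatives, without WT replicate 3 and OE2 replicates 1, 2 and 3 for the peptidase and without WT replicate 3 and OE2 replicates 1 and 3 for the nodulin gene among them (limma adjusted p up to 0.103 and 0.06103).

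Lists of nutrient and sugar transport held 1 to 3 calls each. The nitrate transport partner NAR2.2 (OS04G0480200), which high-affinity nitrate carriers need at the root surface, lay at 2.31, 1.91 and 1.81 FPKM in WT and 6.06, 9.69 and 7.41 FPKM in OE2 (log2 fold change 1.52 ± 0.21 (SE), limma adjusted p = 0.00225), the 1 call among 15 tested genes of nitrogen and amino acids. The sucrose carrier SUT1 (OS03G0170900), which moves sucrose into cells and phloem with protons, lay at 26.5, 27.2 and 38.7 FPKM in WT and 59.55, 55.3 and 79.2 FPKM in OE2 (log2 fold change 1.05 ± 0.19 (SE), limma adjusted p = 0.00979). SWEET2a (OS01G0541800), which lets sugars through membranes both ways, lay at 28.6, 24.7 and 20.8 FPKM in WT and 41.1, 41.1 and 41.5 FPKM in OE2 (log2 fold change 0.73 ± 0.12 (SE), limma adjusted p = 0.00583). In both sugar carriers every OE2 library was above every WT library. Trehalose-phosphate phosphatase 4 (OS02G0753000), which removes the sugar signal trehalose 6-phosphate, fell from 13.8 ± 0.8535 to 8.075 ± 0.7101 FPKM (-0.71 ± 0.15, adjusted p = 0.02195 by limma). Of 26 tested genes of sugars and sugar transport 2 thus rose and 1 fell (11.5%, beside 5.32%), 17 lay above WT and the list's mean level was higher in every OE2 library than in every WT library. Without both outlying libraries 1 of the 26 rose and none fell. The phosphate carrier Pht1-1 (OS03G0150600), for uptake from soil, rose from 109 ± 23.15 to 197 ± 27.4 FPKM (0.86 ± 0.21, limma adjusted p = 0.0474). SPX2 (OS02G0202200), of a family of phosphate sensors, fell from 2.11 ± 0.568 to 0.415 ± 0.363 FPKM (-1.16 ± 0.24). These were 1 rise and 1 fall among 20, of which the fall alone was called without both outlying libraries. The P-type ATPase model 27865 rose from 0.163 ± 0.0819 to 3.02 ± 0.553 FPKM (1.78 ± 0.16), the 1 call among 45 aquaporins, channels and pumps. Every OE2 library of SPX2 and every WT library of model 27865 lay under 1 FPKM. Both thus passed the filter through 1 line alone, which fixed their direction. The calls of NAR2.2 and SWEET2a were kept in the 20 alternatives. That of SUT1 was lost only without both outlying libraries (limma adjusted p = 0.0509), and those of the phosphatase, Pht1-1 and SPX2 were lost without 4, 5 and 3 of the 6 single libraries (limma adjusted p up to 0.116, 0.149 and 0.09365 over all alternatives).

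Hormone genes gave few calls, and those of cytokinin and auxin were all lower in OE2. Of 20 tested cytokinin genes 4 fell and none rose (20%, beside 2.42% of models on the 9 chromosomes called lower). Cytokinin-activating phosphoribohydrolases of the LOG family release the active hormone. Of these OS10G0479500 lay at 16.95, 11.7 and 16.7 FPKM in WT and 9.197, 6.11 and 8.97 FPKM in OE2 (log2 fold change -0.83 ± 0.19 (SE), limma adjusted p = 0.03302), and OS04G0518800 at 11.8, 10.5 and 10.9 FPKM in WT and 6.46, 6.84 and 4.55 FPKM in OE2 (log2 fold change -0.81 ± 0.17 (SE), limma adjusted p = 0.0209). Cytokinin dehydrogenase 3 (OS10G0483500), which degrades the hormone, fell from 8.44 ± 2.196 to 4.39 ± 0.466 FPKM (-0.79 ± 0.17, adjusted p = 0.0281), and PRR95 (OS09G0532400), a clock-related member of the response regulator family, fell from 71.3 ± 7.7 to 49.9 ± 3.02 FPKM (-0.50 ± 0.12, adjusted p = 0.0409). The calls thus hold genes that make, genes that remove and a relative of genes that respond to cytokinin. None of the 4 calls stood in all 20 alternatives. They were lost without 5, 3, 5 and 5 of the 6 single libraries (p adjusted by limma up to 0.175), and 1 of 20 was called without both outlying libraries, with the median at -0.08 before and -0.11 after.

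Of 50 tested auxin genes 2 fell and none rose. IAA24 (OS07G0182400), of the repressors that auxin removes, lay at 80.7, 82.9 and 66.8 FPKM in WT and 55.1, 44.99 and 46.5 FPKM in OE2 (log2 fold change -0.64 ± 0.14 (SE), limma adjusted p = 0.0279), and the auxin-induced PCNT115 gene OS10G0419100 fell from 12.2 ± 0.676 to 7.24 ± 2.01 FPKM (-0.71 ± 0.18, adjusted p = 0.0498). The share of 4% lies beside 5.32% of all models on the 9 chromosomes and 3.88% of those with a described function. The list's mean log2(FPKM + 1) was lower in every OE2 library (3.73 to 3.76) than in every WT library (3.84 to 3.91), with 31 of 50 genes below WT and a median log2 fold change of -0.08. Without both outlying libraries none of the 50 was called. Allene oxide synthase 2 (OS03G0225900), of the first committed step to jasmonate, rose from 60.9 ± 10.5 to 116 ± 29.3 FPKM (0.90 ± 0.21, adjusted p = 0.0323), the 1 call among 25 jasmonate genes, of which 17 lay above WT. The calls of IAA24, PCNT115 and allene oxide synthase 2 were lost without 4, 5 and 4 of the 6 single libraries (p adjusted by limma up to 0.185, 0.122 and 0.101). Limma called none of 19 gibberellin, brassinosteroid and GRAS genes and none of 5 abscisic acid and dehydration genes, where an unadjusted p under 0.05 was reached by 2 and 0.

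Cell wall lists held up to 4 calls each. The gene for expansin-like A3 (OS07G0475400), related to proteins that loosen cell walls, lay at 41.7, 38.04 and 37.9 FPKM in WT and 19.5, 24.05 and 22.4 FPKM in OE2 (log2 fold change -0.81 ± 0.11 (SE), limma adjusted p = 0.00192) and kept its call in all 20 alternatives. It was the 1 call among 24 expansins, of which 17 lay below WT (median -0.18). The peroxidase OS04G0688500, of the secreted class that crosslinks walls and makes or removes peroxide, lay at 52.1, 31.6 and 38.03 FPKM in WT and 98.5, 82.3 and 99.2 FPKM in OE2 (log2 fold change 1.21 ± 0.18 (SE), limma adjusted p = 0.00375), the 1 call among 57. Of 46 lignin and phenylpropanoid genes 3 rose and 1 fell (8.70%, beside 5.32%). At 1 FPKM or more in all 6 libraries none of 37 rose and 1 fell, beside 3.43% of models called. The gene OS09G0399800, for cinnamyl alcohol dehydrogenase 8A, whose relatives carry out the last step to lignin monomers, lay at 502, 476 and 382 FPKM in WT and 294, 322 and 291 FPKM in OE2 (log2 fold change -0.57 ± 0.13 (SE), limma adjusted p = 0.0313) and lies in 1 of the 11 windows, that of 13 to 14 Mb on chromosome 9. Laccase-8 (OS01G0850800), a copper enzyme that couples lignin monomers, rose from 1.299 ± 0.6198 to 3.94 ± 1.05 FPKM (1.11 ± 0.23, adjusted p = 0.0193). The dirigent proteins model 6171 and OS04G0666800 are of a family that steers the coupling of lignin monomers. Model 6171 rose from 1.39 ± 0.9175 to 8.36 ± 1.502 FPKM (2.03 ± 0.44, limma adjusted p = 0.0258). OS04G0666800 rose from 0.597 ± 0.135 to 2.34 ± 0.9502 FPKM (1.02 ± 0.23). It was under 1 FPKM in every WT library, so it passed the filter through OE2 alone. These 4 calls were lost without 5, 4, 5 and 5 of the 6 single libraries (p adjusted by limma up to 0.125), while 6 of the 46 rose and 1 fell without both outlying libraries. Pectin genes gave 2 rises of 23 (8.70%, beside 5.32%) and no call among the 15 at 1 FPKM or more in all 6 libraries. The rises were the pectin acetylesterase OS01G0892600, from 0.8704 ± 0.232 to 2.57 ± 0.603 FPKM (0.93 ± 0.17, adjusted p = 0.00932) and model 36985, given below. Of 44 glucanases and wall hydrolases 3 rose and 1 fell (9.09%, beside 5.32%). At 1 FPKM or more in all 6 libraries 1 of 31 rose and none fell, beside 3.43% of models called. Beta-glucosidase 21 (OS05G0366000) rose from 0.796 ± 0.0536 to 3.26 ± 0.989 FPKM (1.22 ± 0.19) and lies in the window of chromosome 5 given above. Model 19409 fell from 1.37 ± 0.238 FPKM to 0 in every OE2 library. The other 2 rises were model 39289, of glycosyl hydrolase family 9 (0.97), and beta-glucosidase 33 (0.70, OS09G0511900), whose calls were lost in 10 and 14 alternatives. Model 39289 lies in the window of 13 to 14 Mb on chromosome 9. Both beta-glucosidases were under 1 FPKM in every WT library, so they and model 19409 passed the filter through 1 line alone. Beta-glucosidase 21 was lost only without both outlying libraries (limma adjusted p = 0.0546), where none of the 44 rose and 1 fell. Limma called none of 14 cellulose synthases, 14 xyloglucan enzymes and 16 suberin and Casparian strip genes, and 0, 4 and 2 of them had an unadjusted p under 0.05. The median of the suberin list turned from -0.02 to 0.11 without both outlying libraries.

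The NB-ARC, leucine-rich repeat and redox lists held calls in both directions, and the calcium list rises only. Of 49 genes with the NB-ARC domain of intracellular immune receptors 4 rose and 1 fell (10.2%, beside 5.32%), and at 1 FPKM or more in all 6 libraries 1 of 36 was called. Model 12814 lay at 5.245, 6.18 and 7.37 FPKM in WT and 15.4, 14.9 and 13.9 FPKM in OE2 (log2 fold change 1.12 ± 0.18 (SE), limma adjusted p = 0.00512). The blight resistance related OS05G0365300, in the window of chromosome 5, rose from 0.497 ± 0.148 to 2.31 ± 0.3475 FPKM (1.15 ± 0.15). It was under 1 FPKM in every WT library, so it passed the filter through OE2 alone. Model 36256 rose from 1.245 ± 0.5605 to 3.225 ± 0.651 FPKM (0.93 ± 0.22, adjusted p = 0.0342), and model 39122 went from 12.1, 6.95 and 8.16 FPKM in WT to 0 in every OE2 library. The call of model 12814 was lost only without both outlying libraries (limma adjusted p = 0.0606), and that of model 36256 in 11 of 19 alternatives, 3 of them without a single WT or OE2 library (up to 0.1196). Without both outlying libraries 1 of the 49 rose and 1 fell. NB-ARC genes stand in clusters of near-identical copies, so the split of fragments among copies is uncertain. Of 42 leucine-rich repeat proteins 2 rose and 3 fell (11.9%, beside 5.32%), the kinase model 13790 from 3.804 ± 0.698 to 7.82 ± 1.38 FPKM (0.88 ± 0.16, adjusted p = 0.00979) and the kinase model 4323 from 3.73 ± 0.563 to 1.12 ± 0.351 FPKM (-1.17 ± 0.17, adjusted p = 0.00272) among them. Model 36997, with a legume lectin domain, fell from 10.2 ± 1.225 to 5.23 ± 0.924 FPKM (-0.85 ± 0.15, adjusted p = 0.00977), 1 of 36 lectin, wall-associated and cysteine-rich receptor kinases, and lies in a window of chromosome 8 that holds many calls. Its call was lost only without both outlying libraries (limma adjusted p = 0.0923). Of 72 calcium sensors and kinases 4 rose and none fell (5.56%, beside 5.32%). Calcium-dependent protein kinase 13 (OS04G0584600) was the most abundant of them, at 405.5, 436.5 and 335 FPKM in WT and 548, 602 and 579 FPKM in OE2 (log2 fold change 0.56 ± 0.12 (SE), limma adjusted p = 0.0195), with calmodulin-like protein 4 (OS03G0743500) rising from 5.1 ± 0.606 to 8.37 ± 1.17 FPKM (0.62 ± 0.14, adjusted p = 0.02865) and 2 EF-hand genes, OS08G0502600 (1.02) and model 2644 (0.93). Without both outlying libraries none of the 72 was called, and kinase 13 was also lost without OE2 replicates 2 and 3 (adjusted p up to 0.106). Calmodulin-like protein 4 and OS08G0502600 were each lost without 5 of the 6 single libraries (p adjusted by limma up to 0.0992 and 0.263). Model 2644 was under 1 FPKM in every WT library, so it passed the filter through OE2 alone.

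Mitochondrial manganese superoxide dismutase (OS05G0323900), which turns superoxide into peroxide, lay at 188, 162 and 171 FPKM in WT and 264, 251 and 248.5 FPKM in OE2 (log2 fold change 0.55 ± 0.0911 (SE), limma adjusted p = 0.00604) and kept its call in all 20 alternatives, in a window of chromosome 5 (15 to 16 Mb) with 6 of 29 models called. Respiratory burst oxidase B (OS01G0360200), of the NADPH oxidases that make superoxide at the cell surface, fell from 5.15 ± 2.04 to 2.155 ± 0.532 FPKM (-0.93 ± 0.23, adjusted p = 0.0484), a call lost without every single one of the 6 libraries except WT replicate 3 (adjusted p up to 0.157). With the thioredoxin-like model 19949 (0.64), 2 redox genes rose and 1 fell among 59 (5.08%, beside 5.32% of all models and 3.88% of described ones). Without both outlying libraries 1 rose and none fell. The thioredoxin-like model was lost without 4 of the 6 single libraries. Of 28 glutathione S-transferases, which attach glutathione to toxic compounds, 2 rose (7.14%, beside 5.32%), the neighbours OS10G0529500 and OS10G0530200 on chromosome 10, both described as GSTU6. OS10G0530200 lay at 11.9, 8.98 and 12 FPKM in WT and 28.4, 23.65 and 22.9 FPKM in OE2 (log2 fold change 1.12 ± 0.14 (SE), limma adjusted p = 0.00105) and kept its call. OS10G0529500 lay at 62.8, 50.7 and 31.7 FPKM in WT and 80.3, 195 and 117 FPKM in OE2, highest in OE2 replicate 2 (log2 fold change 1.37 ± 0.33 (SE), limma adjusted p = 0.0423), and was lost in 10 alternatives, among them those without WT replicates 2 and 3 and OE2 replicates 2 and 3 (adjusted p up to 0.123). As copies of one another these genes may share fragments, so their separate values are uncertain. The list's median was -0.01, and 0.12 without both outlying libraries. Limma called no cytochrome P450 among 34, of which 6 had an unadjusted p under 0.05, and 1 rose and 1 fell without both outlying libraries.

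Among transcription factors the zinc finger list held rises only. Of 24 Dof, GATA and C2H2 factors 3 rose (12.5%, beside 2.89% of models called higher). The C2H2 factor OS03G0437200 lay at 129, 152 and 146 FPKM in WT and 236, 271 and 252 FPKM in OE2 (log2 fold change 0.83 ± 0.0993 (SE), limma adjusted p = 0.000849) and kept its call in all 20 alternatives. Its neighbour OS03G0437100 rose from 1.95 ± 0.218 to 5.455 ± 0.796 FPKM (1.12 ± 0.21, adjusted p = 0.01203), a call lost without OE2 replicate 3 and without both outlying libraries (adjusted p up to 0.111). The Dof factor OS02G0726300 rose from 16.99 ± 0.785 to 26.1 ± 4.15 FPKM (0.58 ± 0.13, adjusted p = 0.0288), lost without 5 of the 6 single libraries. Of 17 NAC factors, a plant family active in stress and organ boundaries, OS05G0442700 rose and OS10G0413700 fell (11.8%, beside 5.32%). OS05G0442700 lay at 4.99, 6.33 and 4.55 FPKM in WT and 14.5, 14.98 and 17.5 FPKM in OE2 (log2 fold change 1.41 ± 0.16 (SE), limma adjusted p = 0.0006), kept in all 20 alternatives. OS10G0413700 fell from 2.403 ± 0.6955 to 0.732 ± 0.192 FPKM (-0.96 ± 0.21), a call lost without 4 of the 6. It was under 1 FPKM in every OE2 library, so it passed the filter through WT alone. Of 49 bHLH and bZIP factors 2 rose, model 37804 from 3.06 ± 0.257 to 7.17 ± 1.37 FPKM (1.00 ± 0.16, adjusted p = 0.00546) and OS01G0575200 from 177 ± 34.9 to 291 ± 2.63 FPKM (0.73 ± 0.16, adjusted p = 0.0241), and 2 fell, OS03G0591300 from 16.4 ± 0.819 to 8.38 ± 2.305 FPKM (-0.93 ± 0.18, adjusted p = 0.0134) and OS03G0260600 (-0.59), a share of 8.16% beside 5.32%. Model 37804 kept its call in all 20 alternatives, OS03G0591300 lost it without WT replicate 3, and OS01G0575200 and OS03G0260600 lost it without 5 and 6 of the 6 single libraries (limma adjusted p up to 0.0543, 0.08503 and 0.2275). The repressor MYB4 (OS09G0538400) fell from 67.8 ± 3.86 to 40.03 ± 9.98 FPKM (-0.77 ± 0.17, adjusted p = 0.0277), the 1 call among 54 MYB factors, lost without 4 of the 6. Limma called none of 19 WRKY and none of 32 homeobox factors, though 5 and 6 had an unadjusted p under 0.05. The WRKY genes had a median of 0.30, 15 of 19 above WT, and the homeobox genes -0.14, 21 of 32 below.

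Among the largest falls, 18.8 kDa class V heat shock protein (OS07G0517100, chromosome 7, 19935503 to 19936423, plus strand), a small chaperone that holds unfolding proteins, lay at 42.2, 33.6 and 49.1 FPKM in WT and 11.2, 16.9 and 10.4 FPKM in OE2. The highest OE2 value lay well below the lowest WT value (log2 fold change -1.64 ± 0.20 (SE), limma adjusted p = 0.000999). Another small chaperone, the 17.4 kDa class I protein OS03G0266900, moved the other way, at 12.3, 12.8 and 10.95 FPKM in WT and 27.1, 21.7 and 23.02 FPKM in OE2 (log2 fold change 0.93 ± 0.15 (SE), limma adjusted p = 0.00502), and these were the 2 calls among 78 heat shock and chaperone genes. Model 25505, with a cyclin domain, lay at 7.03, 8.69 and 5.75 FPKM in WT and 1.135, 1.34 and 1.44 FPKM in OE2 (log2 fold change -1.81 ± 0.26 (SE), limma adjusted p = 0.00261). The dehydratase OS01G0150800, of the cycle that lengthens very-long-chain fatty acids for waxes, suberin and sphingolipids, lay at 5.17, 5.46 and 6.86 FPKM in WT and 1.94, 1.37 and 1.58 FPKM in OE2 (log2 fold change -1.37 ± 0.17 (SE), limma adjusted p = 0.00119). These 4 calls were kept in all 20 alternatives. The kinase OS04G0103700, in the first 1 Mb of chromosome 4, fell from 22.15 ± 4.155 to 7.78 ± 1.09 FPKM (-1.39 ± 0.17, adjusted p = 0.00112). Neighbouring models on chromosome 9 both fell, model 38942 of the Mpv17 and PMP22 family of organelle membrane proteins from 8.59 ± 1.43 to 2.37 ± 0.572 FPKM (-1.51 ± 0.17, adjusted p = 0.000513) and model 38944, a DEAD box helicase, from 7.94 ± 1.103 to 3.12 ± 0.3801 FPKM (-1.12 ± 0.14, adjusted p = 0.00097). They adjoin on opposite strands in a window of 23 models with 5 called, and the sources used here do not say whether counting used strand. Metallothionein 2b (OS05G0111300), a small metal-binding protein, lay at 198, 116 and 159.5 FPKM in WT and 79.45, 53.2 and 84.6 FPKM in OE2 (log2 fold change -1.11 ± 0.23 (SE), limma adjusted p = 0.01935). The AWPM-19 gene model 27853, of a family of plasma membrane proteins, fell from 55.1 ± 6.87 to 25.9 ± 6.09 FPKM (-1.08 ± 0.18, adjusted p = 0.00561), and the small nucleolar RNA snoR135 (ENSRNA049475950), which guides changes to ribosomal RNA, fell from 7.56 ± 0.259 to 2.84 ± 0.679 FPKM (-1.17 ± 0.25, adjusted p = 0.0253). The metallothionein was lost without WT replicates 1 and 3 and OE2 replicate 2 (adjusted p up to 0.0728), the AWPM-19 gene without both outlying libraries (0.0709), and snoR135 without 5 of the 6 single libraries (up to 0.168).

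The histone list and the list of replication and cell cycle genes each had 2 calls, both lower, and a mean level that was lower in every OE2 library than in every WT library. Histones, which package new DNA, were called in 2 of 30 cases, both lower (6.67%, beside 5.32%), while 26 of 30 lay below WT, 16 had an unadjusted p under 0.05 (beside 3228 of 16931 models on the 9 chromosomes) and 12 had every OE2 value below every WT value (beside 23.1% of models without overlap in either direction). Their median log2 fold change was -0.44, beside 0.01 for all models on the 9 chromosomes. It was -0.51 with equal sums, -0.50 with quantile normalization and -0.28 without both outlying libraries, where none was called. The called genes were copies of histone H4. OS10G0539500 lay at 599.9, 544 and 486 FPKM in WT and 400, 342 and 382 FPKM in OE2 (log2 fold change -0.53 ± 0.12 (SE), limma adjusted p = 0.0311) and OS01G0835900 at 353, 254 and 288 FPKM in WT and 180.5, 196 and 202 FPKM in OE2 (log2 fold change -0.61 ± 0.12 (SE), limma adjusted p = 0.0185), and near-identical copies can share fragments. They were lost without WT replicates 1 and 2 and OE2 replicates 1, 2 and 3 and without OE2 replicates 1, 2 and 3 (adjusted p up to 0.187 and 0.0762). By type, 8 H4 genes had a median of -0.51, 12 H2A genes -0.41 and 9 H2B genes -0.41. The mean log2(FPKM + 1) of the histones was 6.73, 6.34 and 6.47 in WT and 6.13, 6.14 and 6.21 in OE2. WT replicate 1 was the highest, and no OE2 library reached the lowest WT library.

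Limma called none of 123 ribosomal proteins, although 38 had an unadjusted p under 0.05 and 97 lay below WT (median -0.21, and -0.13 without both outlying libraries). Their mean level was 5.70 to 5.99 in WT and 5.66 to 5.78 in OE2, which overlap. The 64 named as parts of the cytosolic 40S or 60S subunit had a median of -0.26, with 60 below WT, and the 30 named for organelles -0.03, with 17 below. For the cytosolic ones the mean level was 7.64, 7.23 and 7.48 in WT and 7.26, 7.19 and 7.17 in OE2, so WT replicate 2 lay within the range of OE2. Of 35 replication and cell cycle genes 2 fell, the cyclin model 25505 and model 36285, with the polymerase and exonuclease domains of family A DNA polymerases, at 12.2, 14.6 and 17.3 FPKM in WT and 8.07, 6.33 and 7.06 FPKM in OE2 (log2 fold change -0.94 ± 0.15 (SE), limma adjusted p = 0.00512). In that list 26 lay below WT (median -0.17), and both calls were also made without both outlying libraries. Limma called 0 of 51 translation factors and tRNA ligases, where 6 had an unadjusted p under 0.05 and the median was -0.01. Photosynthesis genes, which trace green tissue in root samples, were not called in any of 15 cases (4 at an unadjusted p under 0.05), with a median of -0.29 and mean levels of 2.65, 2.97 and 3.35 in WT and 2.86, 2.45 and 2.79 in OE2, which overlap. Their part in the other lists was not tested.

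**Figure D4:**
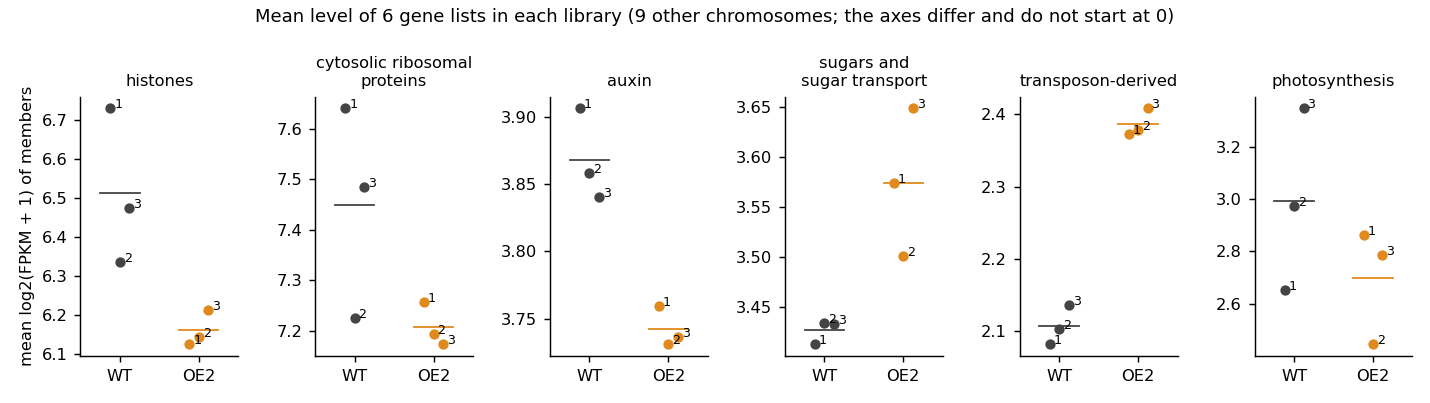
Mean log2(FPKM + 1) over the tested members of 6 gene lists on the 9 chromosomes (y axis; scales differ and do not start at 0) in each WT (grey) and OE2 (orange) library, with the replicate number beside each point and a line at the mean of 3 libraries. Histones and auxin genes are lower in every OE2 library than in every WT library, sugars and transposon-derived models are higher in every OE2 library, and the cytosolic ribosomal proteins and photosynthesis genes overlap. The transposon-derived mean includes models that passed the filter through 1 line alone, which fixed their direction. Models 29015 and 39275, at 0 in WT, and model 40553, near 0 in OE2, are examples.

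The most extreme differences were between a level in OE2 and next to none in WT, or the reverse. OS01G0780900, an antigen-like protein (chromosome 1, 33082114 to 33083394, plus strand), had values of 99.03, 83.7 and 92.75 FPKM in OE2, where WT had 0 in each library. Model 7742 has an enoyl-CoA hydratase domain, known from fatty acid and amino acid breakdown, and lay at 1.25, 0.6504 and 1.19 FPKM in WT and 81.3, 83.2 and 73.45 FPKM in OE2 (log2 fold change 5.32). Model 36985, for a protein that inhibits invertases or pectin methylesterases, had 7.74, 9.085 and 12.1 FPKM in OE2 and 0 in WT, in a window of chromosome 8. The other rises of this rank were transposon-derived. Model 29015, with a transposase domain, had 49.04, 43.6 and 46.9 FPKM in OE2 and 0 in WT. Model 14664, a MuDR family transposase, had 0.0531 FPKM in WT replicate 2, 0 in the other WT libraries and 14.2, 15.3 and 15.3 FPKM in OE2. Model 39275, a gypsy type element, had 7.79, 9.68 and 9.81 FPKM in OE2 and 0 in WT, and lies in the window of 13 to 14 Mb on chromosome 9. Among the falls, model 40553, with reverse transcriptase domains, lay at 12.65, 15.3 and 14.2 FPKM in WT and 0.0419, 0.0148 and 0.0143 FPKM in OE2, and the copia type model 539 went from 6.72, 6.56 and 7.07 FPKM to 0. All of these models but model 7742 passed the filter through 1 line alone, so they had to differ and no p-value is given for them. Model 7742 also reached 1 FPKM in WT replicates 1 and 3 (limma adjusted p = 1.37e-07). A fold is not given where a line is at 0.

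Transposon-derived models were the list with the most calls. Of 145 on the 9 chromosomes 98 passed the filter and 15 were at 0 in all 6 libraries, and of the 98 there were 16 rises and 8 falls (24.5%, beside 5.32%), 3 of these calls in the 11 windows. Most of these calls were of models under 1 FPKM in at least 1 library: at 1 FPKM or more in all 6 libraries 2 of 71 rose and 4 fell, beside 3.43%. The list's mean level was 2.08, 2.10 and 2.14 in WT and 2.37, 2.38 and 2.41 in OE2. This mean includes the models that passed the filter through 1 line alone, which fixed their direction, so it is no measure of the whole list. How much of this difference lies in the same models was not tested. Of those used in both lines, model 25100, with a transposase-associated domain, lay at 16.2, 16.9 and 15.9 FPKM in WT and 6.27, 7.57 and 6.75 FPKM in OE2 (log2 fold change -1.14 ± 0.12 (SE), limma adjusted p = 0.000289), kept in all 20 alternatives. Falls of the reverse transcriptase model 20202 from 6.51 ± 1.35 to 1.94 ± 0.848 FPKM (-1.38 ± 0.28, adjusted p = 0.0174) and of the copia type model 39421 from 12.5 ± 3.89 to 4.07 ± 2.01 FPKM (-1.46 ± 0.36, adjusted p = 0.04445) were lost without WT replicates 2 and 3 and without WT replicates 1 and 3 and OE2 replicates 1 and 3 (adjusted p up to 0.0702 and 0.1297). Copies of an element can share fragments, so a value of 1 copy is uncertain. Model 27661, at 0 in WT and 5.49, 5.33 and 5.29 FPKM in OE2, has the FAR1 domain of light signalling factors, which themselves descend from transposases, and lies in the window of 17 to 18 Mb on chromosome 5.

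Protein turnover, vesicle traffic and the cytoskeleton gave few calls. Of 94 proteasome and ubiquitin genes 2 rose, the ubiquitin ligase RZFP34 (OS01G0719100), which marks proteins for breakdown, at 24.1, 23.6 and 22.85 FPKM in WT and 46.3, 36.5 and 52.5 FPKM in OE2 (log2 fold change 0.90 ± 0.14 (SE), limma adjusted p = 0.00489), and model 4330 (0.84), and 68 of 94 lay above WT (median 0.11). Of 82 F-box and BTB genes 2 rose, the kelch repeat F-box gene OS02G0748300 from 164 ± 36.05 to 259.8 ± 18.8 FPKM (0.68 ± 0.15, adjusted p = 0.0263) and model 6630 (0.74). The Rab GTPase regulator model 37014 rose from 0.255 ± 0.0621 to 2.698 ± 0.515 FPKM (1.55 ± 0.16), 1 of 30 vesicle traffic genes. The myosin heavy chain-like OS07G0506600 rose from 9.455 ± 1.63 to 18.1 ± 3.12 FPKM (0.87 ± 0.18, adjusted p = 0.0209), 1 of 64 tubulin, actin and motor genes, of which 41 lay below WT. Of 85 glycosyltransferases 3 rose, OS04G0556500 from 24.1 ± 7.985 to 43.45 ± 3.44 FPKM (0.87 ± 0.21, adjusted p = 0.03885), OS07G0490100 (1.00) and model 3891 (0.72). Limma called none of 24 genes of mitochondrial respiration, and 2 had an unadjusted p under 0.05. Models 37014, 4330 and 6630 and OS07G0490100 were under 1 FPKM in every WT library. They thus passed the filter through OE2 alone, which fixed their direction. Of the calls named in this group, that of RZFP34 was kept in all 20 alternatives. That of model 6630 was lost only without both outlying libraries (limma adjusted p = 0.0564). The calls of model 4330, OS02G0748300, OS07G0506600, OS04G0556500, OS07G0490100 and model 3891 were lost without 4, 5, 4, 5, 5 and 5 of the 6 single libraries.

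**Figure D5:**
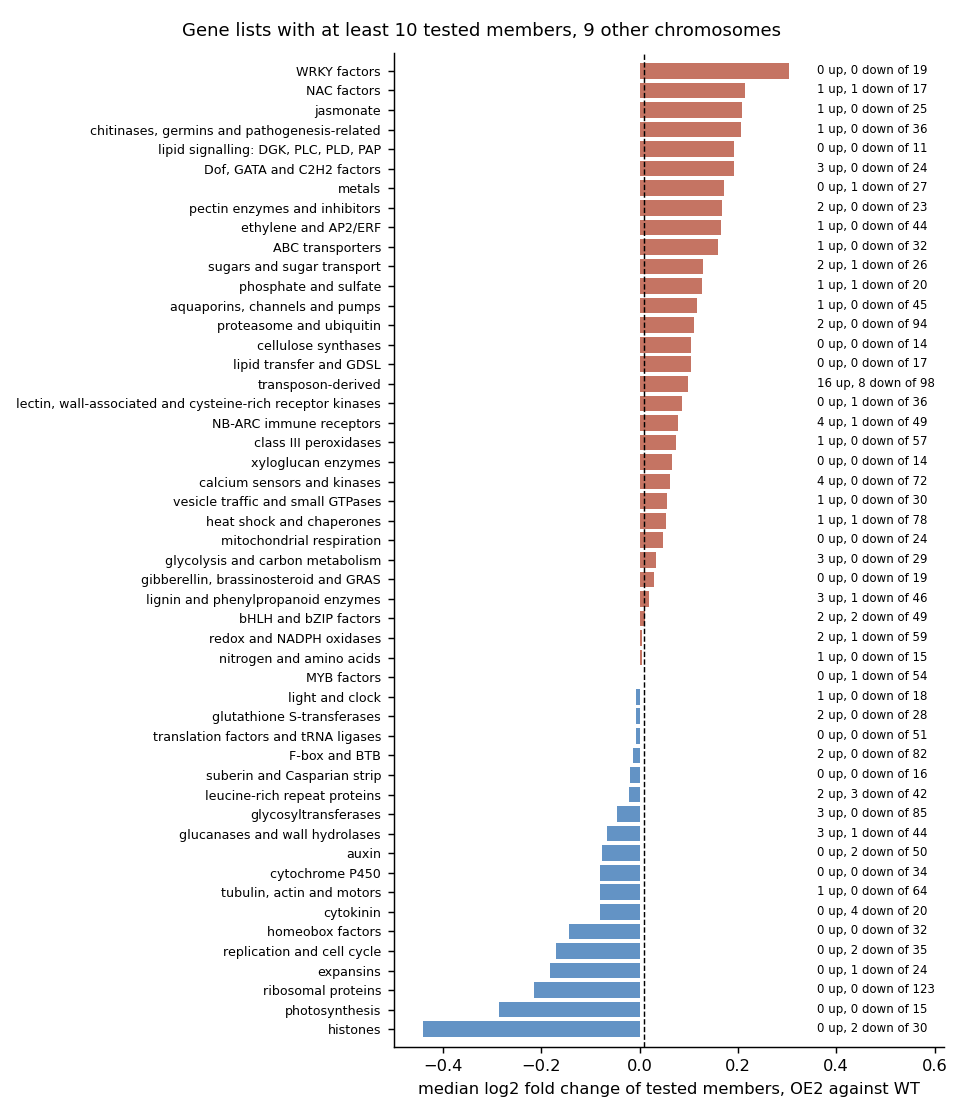
Median log2 fold change of OE2 against WT (x axis) for each gene list with at least 10 tested members on the 9 chromosomes, with the number of members called higher and lower beside each bar. The dashed line is the median of all tested models there, 0.01. Histones are lowest at -0.44 and WRKY factors highest at 0.30, and neither extreme is matched by many calls, with 2 of 30 and 0 of 19.

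Over the 54 lists, 104 of 1985 tested models were called (5.24%, beside 5.32% of all models on the 9 chromosomes and 3.88% of described ones). Of the 104, 24 were transposon-derived models, most of them under 1 FPKM in at least 1 library. Limma called no member of 16 lists. In 12 lists the mean level was higher in every OE2 library than in every WT library, and in 5 the reverse. The library set apart on the second component was the highest of its line in 37 lists for WT replicate 1 and in 33 for OE2 replicate 2, and in 28 lists for both. Of the 101 called models named here on the 9 chromosomes, 47 kept their call in every one of the 20 alternatives that gave them a value, and none changed direction in any. These 47 hold all 9 that were listed at 0 in 1 line, whose calls the filter fixed, and 38 of the other 92. Among the 38, models 14664, 40553, 27865 and 37014 and OS05G0365300 were under 1 FPKM in every library of 1 line. Their direction was thus fixed by the filter as well. Leaving out any single WT or OE2 library ended 25 to 38 of the 101 calls. Without both outlying libraries 77 of the 1985 models were called, 61 of them among the 104. Calls became fewer in 19 lists, stayed equal in number in 30 and became more in 5. None was left in 7 lists that had any, those of auxin, jasmonate, MYB, receptor kinase, calcium, histone and F-box genes, and the median changed sign in 4, those of suberin, MYB, light and clock, and glutathione S-transferase genes.

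The lipid genes around the kinase itself gave no call on the 9 chromosomes. Among 34 models of diacylglycerol kinases, phospholipases C and D and lipid phosphatases there, 14 were at 0 in all 6 libraries and 11 were tested. Of those at 0, OS04G0634700 and OS08G0178700 share the spans of models 25546 and 36311, which had fragments. None of the 11 was called by limma, 2 had an unadjusted p under 0.05, and 8 lay above WT (median 0.19). Their mean log2(FPKM + 1) was higher in every OE2 library (4.10 to 4.18) than in every WT library (3.93 to 4.03). In 4 of them every OE2 value was above every WT value and in none below, beside 23.1% of models without overlap in either direction. On chromosomes 6, 11 and 12, 2 of 5 tested were called, both higher, beside 15.6% of models there. On the 9 chromosomes the kinase list has 14 models, of which 7 were at 0 in all 6 libraries and 3 were tested. The other 4 had values but missed the filter (model 25546 and models 36311, 7241 and 36689, none above 0.896 FPKM in WT or OE2). The 3 tested were model 34608 on chromosome 7, at 2.28, 3.06 and 1.92 FPKM in WT and 3.36, 3.76 and 3.94 FPKM in OE2, model 15899 on chromosome 2, at 4.19, 3.56 and 3.97 FPKM in WT and 3.68, 3.42 and 4.57 FPKM in OE2, and OS01G0783200 on chromosome 1, at 0.711, 1.604 and 1.64 FPKM in WT and 1.102, 1.38 and 2.09 FPKM in OE2. In model 34608 every OE2 value was above every WT value (log2 fold change 0.46 ± 0.17 (SE), limma adjusted p = 0.162), and the other kinases overlapped (adjusted p = 0.981 and 0.774). The most abundant, model 11163, lies on chromosome 12 and lay at 31.3, 33.9 and 23.5 FPKM in WT and 41.8, 47.7 and 45.9 FPKM in OE2 (log2 fold change 0.61 ± 0.14 (SE), limma adjusted p = 0.0351). Its call was lost in 12 of 20 alternatives, all 6 single libraries but WT replicate 2 among them (adjusted p up to 0.141), and it lies in a window with over 20% of models called.

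On chromosomes 6, 11 and 12 the calls were larger, with a median size of 1.62 on the log2 scale in both directions, and 111 called models were listed at 0 in every WT library and 112 in every OE2 library. Windows with over 20% called made up 32 of 89. The largest described rises were OS12G0204600, an NB-ARC gene at 0, 0.285 and 0.03085 FPKM in WT and 20, 26.9 and 15.9 FPKM in OE2, model 30209, a copia type element at 0.141, 0.139 and 0.03515 FPKM in WT and 18.2, 16.8 and 18.4 FPKM in OE2, and model 11226, with a C2 domain, at 0.305, 0.275 and 0.363 FPKM in WT and 8.915, 30.8 and 5.52 FPKM in OE2, highest in OE2 replicate 2. The largest described falls were model 30907, an acyl-CoA dehydrogenase at 24.5, 27.9 and 27.1 FPKM in WT and 0, 0 and 0.0372 FPKM in OE2, model 31238, a MuDR transposase from 16.65, 16.8 and 19.7 FPKM to 0, and metallothionein-like 1A (OS11G0704500) at 30.1, 17.6 and 21.5 FPKM in WT and 0.185, 0.392 and 0.9499 FPKM in OE2. Of 58 tested NB-ARC genes there 10 rose and 7 fell (29.3%, beside 15.6% of all models there). For these genes a difference of the chromosome stretch and a response of the gene cannot be told apart, so no function is read from them.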

How the data were processed

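RNA-seq values of rice roots were taken as the authors deposited them. Neither labels nor headers name their unit, which was read as FPKM from the deposited values and the length column. The submitters' processing notes name CASAVA 1.8 and HISAT2, without their roles. The sources used here do not give the counting tool, annotation, genome build or use of strand. Multiplied by length, 100% of the values of a library were whole multiples of a step (tolerance 0.01), from which whole fragments and depth were recovered. A scaling between libraries is already part of the deposited values. Annotated models have an OS identifier and numbered models a running number. Where a numbered model shares the span of an annotated one, a 0 for the latter need not mean absence.

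The test took models that reached 1 FPKM in 3 or more WT and OE2 libraries. It was limma 3.58.1 (R 4.3.3, statmod 1.5.0) on log2(FPKM + 1) with trend and robust variance and all 9 libraries in 1 fit. Tests were two-sided, with Benjamini-Hochberg adjustment over the 21054 models. Fold changes on this scale understate those of low genes. Fold changes are given ± SE, means ± SD over n = 3 libraries. The test was checked on simulated data. Replicates were not copies of each other, since their fragments differed beyond sampling noise (chi-square per degree of freedom 5.01 to 18.7).

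Named genes were, among called models on the 9 chromosomes with at least 5 FPKM in the higher line, no overlap and a described function, the 6 largest rises and falls, the 12 largest each way among those at 1 FPKM in all 6 libraries, the 6 most abundant, and up to 4 called members of each list. On chromosomes 6, 11 and 12 they were the 3 largest each way, and the diacylglycerol kinases were added. For list members the minimum of 5 FPKM and the rule on overlap were not applied, so some are named after their values were seen. Lists were matched on descriptions, and their patterns were narrowed to whole words after the matches were seen. The members and lists were chosen with earlier results of these data known. OS04G0634700 was taken as the target from background knowledge.

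Alternatives were other filters, a pseudocount of 0.1, the 6 libraries alone, other scalings, no trend, limma's voom on whole fragments, a fold threshold, the replicate number as a block, and single libraries left out. Leaving out WT replicate 1 and OE2 replicate 2 together was added after seeing the data.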

Additional observations from a re-analysis of the deposited data

How the results depend on the processing

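Counts of called models moved by over 1.5 times where fewer models were counted. A filter of 5 FPKM gave 775 calls in all, 474 on the 9 chromosomes and 301 on chromosomes 6, 11 and 12. On the 9 chromosomes 552 calls differed by at least 2-fold, and 455 lay at 1 FPKM or more in all 6 libraries. With no filter, 1 FPKM in 3 of all 9 libraries, a pseudocount of 0.1, the 6 libraries alone, equal sums, quantile normalization, no trend or voom on fragments, the count on the 9 chromosomes lay between 665 (6 libraries alone) and 977 (voom), against 900. Equal sums turned the split from 490 higher and 410 lower to 437 and 485. Single libraries left out gave 1123 to 1641 calls in all, 612 (without OE2 replicate 3) to 994 (without WT replicate 2) on the 9 chromosomes and 511 to 645 on chromosomes 6, 11 and 12. Without WT replicate 1 and OE2 replicate 2, chosen after seeing the data, 630 models were called on the 9 chromosomes, of which 524 were among the 900. Of 54 gene lists, the sign of the median turned with equal sums or quantile normalization in 11, all of them within 0.07 of 0.

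Same-numbered WT and OE2 libraries did not deviate together (r = -0.12, -0.14 and 0.03). The labels do not say whether a shared number marks a shared batch, and so few libraries cannot settle it. With the replicate number as a block 1190 models were called in all, 661 on the 9 chromosomes and 529 on chromosomes 6, 11 and 12. The kinase model at the targeted locus, model 25546, had a value only with no filter and with the filter over 9 libraries, -0.11 in both (limma adjusted p = 0.790 and 0.779). No named call changed sign in any alternative. Depth limits low models most: model 25546 rests on 66 and 48 fragments.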
